A study of Mus musculus with 4 samples.

Results

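The genes described here encode 2 families of enzymes that handle aldehydes and ketones, the aldehyde dehydrogenases (symbols starting with Aldh) and the aldo-keto reductases (Akr). They were taken by symbol from the array annotation, where Aldh or Akr was followed by a number, a letter and a number. Aldh18a1 was left out, and symbols of another form, such as Aldh2, did not match. Only probe sets carrying a single symbol were used. For a gene with several such probe sets, the brightest on average was kept. This gave 32 of 22180 named genes, 19 aldehyde dehydrogenases and 13 aldo-keto reductases. Akr1b3, Akr1b7 and Akr1c13 were not analysed here. The families were chosen on the Senexin B values of Aldh3a1 and Akr1c18 in these same arrays, so those values are a description.

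Aldehyde dehydrogenases oxidize reactive aldehydes to acids with NAD or NADP, and so clear products of lipid peroxidation, make retinoic acid from retinaldehyde, and finish the breakdown of several amino acids. Aldo-keto reductases work the other way, reducing aldehydes and ketones, among them sugars, steroids and prostaglandins, to alcohols. In tumours the families are known as markers of cells with high detoxifying capacity, and several members are induced by the xenobiotic receptor AHR or the antioxidant factor NRF2.

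The cells were CT26, a mouse colon carcinoma line in culture, and each of 4 groups was measured on 1 Affymetrix Mouse Gene 2.0 ST array. One pair was CT26 given the solvent DMSO for 24 h and CT26 given 5 µM Senexin B, an inhibitor of the Mediator kinases CDK8 and CDK19, for 24 h. The other pair was CT26-pLKO.1, a line with the empty hairpin vector, and CT26-shCDK8, a line labelled for a hairpin against CDK8. Whether the hairpin line is a pool or 1 clone, and how long it was grown, is not given in the sources used here. With 1 array per group no difference could be tested, and culture-to-culture spread cannot be told apart from an effect. All values are log2 expression after RMA, and differences are on the same scale, where 1 is 2-fold.

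The gene targeted by the hairpin, Cdk8, read 9.07 in shCDK8 against 10.79 in pLKO.1, and 10.58 with Senexin B against 10.69 with DMSO, so the array labelled shCDK8 was the lowest. The array medians lay between 5.99 and 6.04. A gene was counted as above background where its highest array reached 5.98, which 40% of the gene values lie under, since no detection calls were used here. As a check on that limit, 95% of the values of 1394 olfactory and vomeronasal receptor genes, which a carcinoma line is not known to use, lay under 6.07. All 7 measured mesenchymal markers were over the limit on every array, but only 5 of 9 epithelial markers were, and Epcam, the pan-epithelial adhesion gene, was between 4.38 and 4.64. Hepatocyte markers, relevant because liver is rich in these enzymes, had medians of 5.58 to 5.67 with 2 to 4 of 9 over the limit, and albumin (Alb) lay between 4.50 and 4.81. Of 6 macrophage markers Cd68 and Cd14 were over the limit and Ptprc, which marks all leukocytes, lay between 4.27 and 4.66. Cd14 differed by 0.79 between Senexin B and DMSO. In shCDK8 minus pLKO.1 the gut keratin gene Krt20 was at -1.44 and the collagen gene Col3a1 at -1.27. The part of these markers in the results was not tested, and in bulk RNA fewer cells of a type and less RNA per cell cannot be told apart.

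Of the 32 genes 22 were above the limit, 16 aldehyde dehydrogenases and 6 aldo-keto reductases, and 18 of these were over it on all 4 arrays. The nearest to the limit from above was Aldh1l1, over it on the shCDK8 array alone at 5.999, and from below Aldh1a2, whose highest value was 5.71. The 10 under the limit on every array were Aldh1a2, Aldh1a7, Aldh8a1, Akr1c6, Akr1c12, Akr1c14, Akr1c19, Akr1c20, Akr1c21 and Akr1d1. Their highest values ran from 3.94 for Akr1c21 to 5.71, so their differences are not described.

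**Figure D1:**
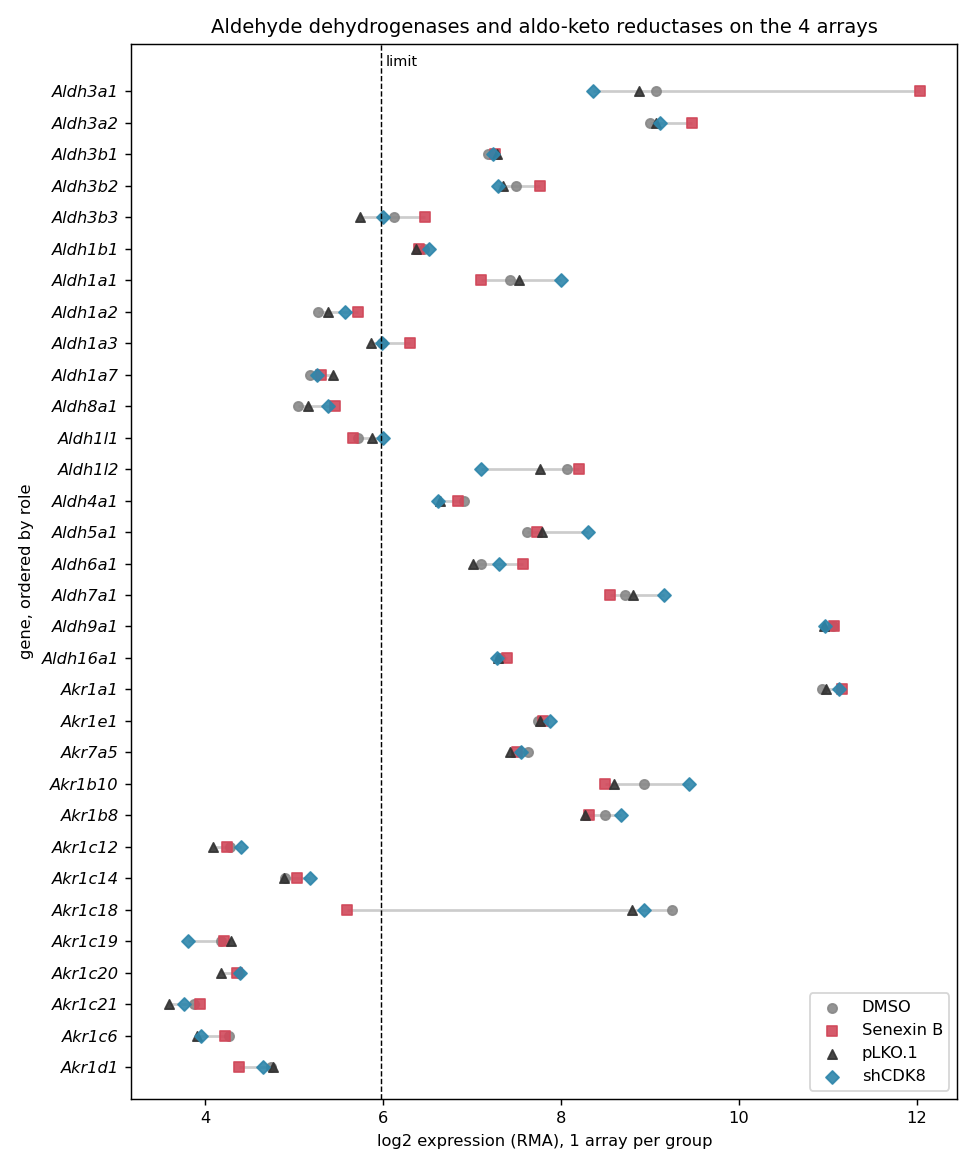
Log2 expression (x axis) of all 32 genes (rows, ordered by role) on the 4 arrays, 1 marker per array, with a grey line from the lowest to the highest array and a dashed line at the limit of 5.98. Aldh3a1 stands alone to the right on the Senexin B array at 12.03 and Akr1c18 to the left at 5.59, while most rows are narrow.

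The sequences before the start of 3 genes are shown, because Akr1c18 had the lowest difference of all genes with Senexin B and the neighbours Akr1b8 and Akr1b10 were both highest in shCDK8. They are the 250 bases before the start in RefSeq's table for GRCm38.p6, written 5′ to 3′ on the strand of the gene. Capitals mark matches on either strand to the motifs searched: GCGTG (core of the xenobiotic response element), TGACNNNGC (antioxidant response element), AGGTCA (the core bound by retinoic acid receptors), CACGTG (E-box) and TATAAA (the core of the TATA box).
Akr1c18, chr13:4150647-4150896, minus strand: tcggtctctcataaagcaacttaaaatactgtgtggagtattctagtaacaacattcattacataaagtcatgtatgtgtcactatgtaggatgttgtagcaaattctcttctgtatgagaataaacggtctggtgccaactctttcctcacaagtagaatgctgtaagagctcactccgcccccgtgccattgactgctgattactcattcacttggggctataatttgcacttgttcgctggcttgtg
Akr1b8, chr6:34353896-34354145, plus strand: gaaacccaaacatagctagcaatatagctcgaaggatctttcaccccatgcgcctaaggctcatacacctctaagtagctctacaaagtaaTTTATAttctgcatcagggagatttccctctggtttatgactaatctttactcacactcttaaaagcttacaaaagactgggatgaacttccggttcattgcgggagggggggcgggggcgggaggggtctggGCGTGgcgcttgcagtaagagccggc
Akr1b10, chr6:34383997-34384246, plus strand: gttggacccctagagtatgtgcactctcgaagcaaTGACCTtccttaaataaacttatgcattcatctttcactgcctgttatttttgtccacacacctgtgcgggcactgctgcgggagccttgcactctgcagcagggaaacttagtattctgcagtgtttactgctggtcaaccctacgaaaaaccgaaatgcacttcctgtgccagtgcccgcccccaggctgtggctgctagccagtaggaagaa

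The Akr1c18 stretch, on chromosome 13, held none of the 5 motifs and was 41.6% G and C. Akr1b8 held GCGTG beginning 26 bases before the start and, on the opposite strand, the TATA letters 159 bases before it. Akr1b10 held the opposite strand of AGGTCA 215 bases before its start. Promoters were in the table for 26 of the 32 genes, in 28 entries, and Aldh3a1, Aldh1a3, Aldh1l2, Aldh3b2 and Aldh7a1 were among those without one. GCGTG was in 6 of the 28, beside 28.2% of all 32851 promoters, TGACNNNGC in 2 beside 10.2%, AGGTCA in 6 beside 14.0%, CACGTG in 2 beside 6.02% and TATAAA in 3 beside 12.4%. A match of letters describes the sequence and says nothing of binding.

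With Senexin B the families held 1 gene far above and 1 far below its control. Of the 22 members 1 was at least 2-fold higher than in DMSO, beside 0.687% of the 14272 genes above the limit, and 1 was at least 2-fold lower, beside 0.252%. These are Aldh3a1 and Akr1c18, on which the families were chosen, so nothing is read from the counts. No other member reached 1.5-fold in either direction, so 2 of 22 were that far apart, beside 4.0% of all genes. The median over the 22 was 0.064, beside -0.028 over all genes, with 13 above 0 beside 44.8% of all genes. Without Aldh3a1 and Akr1c18 the median was the same 0.064 and the values ran from -0.44 to 0.48. Against the other control, pLKO.1, 2 members were 2-fold apart, beside 1.01%, and 3 were 1.5-fold apart, beside 4.44%, Aldh3b3 being added. The pLKO.1 value of Aldh3b3 was under the limit, and with it raised to the limit its difference was 0.49, under 1.5-fold. Senexin B lay above both controls in 11 of 22 members, beside 35.1%, and below both in 5, beside 40.4%.

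Aldh3a1 encodes a dehydrogenase of aromatic and medium-chain aldehydes that is abundant in cornea and stomach and is a known target of AHR. It stood at 9.06 in DMSO, 12.03 in Senexin B, 8.88 in pLKO.1 and 8.36 in shCDK8. The Senexin B array was far above the other three, which lay between 8.36 and 9.06. The difference was 2.97, or 7.83-fold, from DMSO and 3.16, or 8.93-fold, from pLKO.1. Only 1 gene of the 14272 had a larger positive difference from DMSO. In shCDK8 the gene was lower than in either control, at -0.51 from pLKO.1 and -0.70 from DMSO, so the sign was opposite to that with the inhibitor.

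Akr1c18 encodes the hydroxysteroid dehydrogenase that turns progesterone into an inactive form, best known from the ovary at the end of pregnancy. It stood at 9.25 in DMSO, 5.59 in Senexin B, 8.80 in pLKO.1 and 8.94 in shCDK8. The Senexin B value was the only one under the limit, and the other three lay within 0.45 of each other. The measured difference was -3.66 from DMSO and -3.21 from pLKO.1. Since the Senexin B value lay under the limit, only a bound can be given: with that value raised to the limit the level was at least 9.64-fold lower than in DMSO and at least 7.08-fold lower than in pLKO.1. Computed this way it was still the lowest difference of the 14272 genes in both comparisons. The shCDK8 array was at 0.14 from pLKO.1 and -0.31 from DMSO, so it lay between the controls.

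The measured genes next to these on the chromosome were read as well. Aldh3a2, the fatty aldehyde dehydrogenase that clears aldehydes from sphingolipid and fatty alcohol breakdown, follows Aldh3a1 directly on chromosome 11. It was at 8.996 in DMSO, 9.48 in Senexin B, 9.07 in pLKO.1 and 9.11 in shCDK8, a difference of 0.48 from DMSO and 0.41 from pLKO.1. Its second probe set, at lower signal, gave 0.47 from DMSO. Of the other neighbours within 3 measured genes, Tnfrsf13b, Slc47a2 and Slc47a1 were under the limit on all arrays and give no value. Usp22, a histone deubiquitinase gene, was at 0.26 for Senexin B minus DMSO, and Kcnj12, a potassium channel gene close to the limit, at 0.27.

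The 6 measured genes nearest to Akr1c18 (Tubal3, Ucn3, Akr1c14, Akr1c19, Akr1c12 and Akr1c6) were all under the limit on every array, so no difference could be read from them. Akr1e1, an anhydrofructose reductase gene on the same chromosome, was at 7.74, 7.80, 7.76 and 7.88 in DMSO, Senexin B, pLKO.1 and shCDK8. Akr1c18 was the single measured Akr1c gene above the limit. Akr1c13, which lies between Akr1c18 and Akr1c19, was not analysed here. Relatives this similar can share signal on an array, which was not tested.

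The other dehydrogenases of fatty aldehydes were Aldh3b1, Aldh3b2 and Aldh3b3, membrane-bound relatives that lie together on chromosome 19. Aldh3b2 stood at 7.49 in DMSO, 7.77 in Senexin B, 7.35 in pLKO.1 and 7.30 in shCDK8, and Senexin B was the highest. Aldh3b3 stood at 6.13, 6.47, 5.74 and 5.998 in the same order, again highest with Senexin B. Its distance from the inhibitor array was 0.34 for DMSO and 0.73 for pLKO.1, where it was under the limit, so the size depends on the control. Aldh3b1 was flat, from 7.18 to 7.29. All 4 fatty aldehyde genes, Aldh3a2 included, were above 0 for Senexin B minus DMSO, beside 44.8% of all genes. Their median was 0.31, but Aldh3b1 turned to -0.027 against pLKO.1. In shCDK8 minus pLKO.1 2 of the 4 were above 0, beside 50.8%, and the median was -0.0040. Aldh1b1, a mitochondrial acetaldehyde dehydrogenase, stayed between 6.37 and 6.51 on the 4 arrays.

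Retinaldehyde is oxidized to retinoic acid by Aldh1a1, Aldh1a2 and Aldh1a3. Aldh1a1, also used as a marker of stem-like tumour cells, stood at 7.42 in DMSO, 7.10 in Senexin B, 7.53 in pLKO.1 and 8.002 in shCDK8. Senexin B was the lowest array, at -0.32 from DMSO and -0.43 from pLKO.1. The hairpin line was the highest, at 0.47 from pLKO.1 and 0.58 from DMSO. Aldh1a3 was near the limit at 5.98, 6.30, 5.86 and 5.99, and 0.32 higher in Senexin B than in DMSO. The differences of these genes thus pointed in opposite directions with the inhibitor.

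The folate dehydrogenases Aldh1l1 (cytosolic) and Aldh1l2 (mitochondrial) oxidize the formyl group of formyl-tetrahydrofolate. Aldh1l2 stood at 8.07 in DMSO, 8.21 in Senexin B, 7.76 in pLKO.1 and 7.10 in shCDK8. The hairpin line was the lowest array, at -0.66 or 1.58-fold from pLKO.1 and -0.97 or 1.96-fold from DMSO. It was the single member at least 1.5-fold from both controls in shCDK8, beside 1.09% of all genes that far below both. Aldh1l1 was at 5.71, 5.66, 5.88 and 5.999, under the limit on 3 arrays.

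The dehydrogenases of amino acid and amine breakdown had a median of 0.011 for Senexin B minus DMSO, with 3 of 5 above 0 beside 44.8% of all genes. For shCDK8 minus pLKO.1 the median was 0.30, with 4 of 5 above 0 beside 50.8%. Against DMSO it was 0.21 with 3 of 5 above 0, beside 6785 of all 14272 genes. The difference between the comparisons was not tested. Aldh5a1, which ends the breakdown of the transmitter GABA, stood at 7.62 in DMSO, 7.73 in Senexin B, 7.79 in pLKO.1 and 8.30 in shCDK8. The hairpin line was the highest, by 0.51 from pLKO.1 and 0.68 from DMSO. Aldh7a1, of lysine breakdown, was at 8.72, 8.55, 8.81 and 9.16, also highest in shCDK8. Aldh6a1, of valine and thymine breakdown, was at 7.10, 7.57, 7.01 and 7.31, highest with Senexin B by 0.48 from DMSO and 0.56 from pLKO.1. A second probe set of Aldh6a1 lay under the limit (3.50 to 3.81). Aldh9a1, of carnitine synthesis, was at 11.05, 11.07, 10.95 and 10.97 and hardly differed. Aldh4a1, of proline breakdown, was at 6.91, 6.84, 6.64 and 6.62, with the pLKO.1 and shCDK8 arrays lower together. Aldh16a1, whose enzyme activity is thought to be lost in mammals, was between 7.28 and 7.39.

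Among the aldo-keto reductases the broad aldehyde reductases differed little. Akr1a1, which reduces glucuronate on the way to vitamin C in mice, was at 10.93, 11.16, 10.98 and 11.12 in DMSO, Senexin B, pLKO.1 and shCDK8. Akr7a5, a reductase of aflatoxin and succinic semialdehyde, was between 7.43 and 7.63. In these genes and Akr1e1 the distance between the lowest and highest array was at most 0.23.

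Akr1b8 and Akr1b10 are aldose reductase-like enzymes that reduce lipid aldehydes and retinaldehyde, and lie side by side on chromosome 6. Akr1b10 stood at 8.93 in DMSO, 8.49 in Senexin B, 8.60 in pLKO.1 and 9.44 in shCDK8. The hairpin line was the highest array, by 0.85 or 1.80-fold from pLKO.1 and by 0.52 or 1.43-fold from DMSO. Akr1b8 was also highest in the hairpin line, at 8.49, 8.31, 8.27 and 8.68 in the same order of arrays, with 0.40 from pLKO.1 and 0.19 from DMSO. For Senexin B the differences from DMSO were -0.44 and -0.18, but from pLKO.1 they were -0.10 and 0.036, so they rest on the DMSO array. The next measured genes outward, Slc35b4 and Bpgm, were at -0.029 and -0.057 in shCDK8 minus pLKO.1. Akr1b3 comes before Akr1b8 and Akr1b7 after Akr1b10 on this chromosome, and neither was analysed here.

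**Figure D2:**
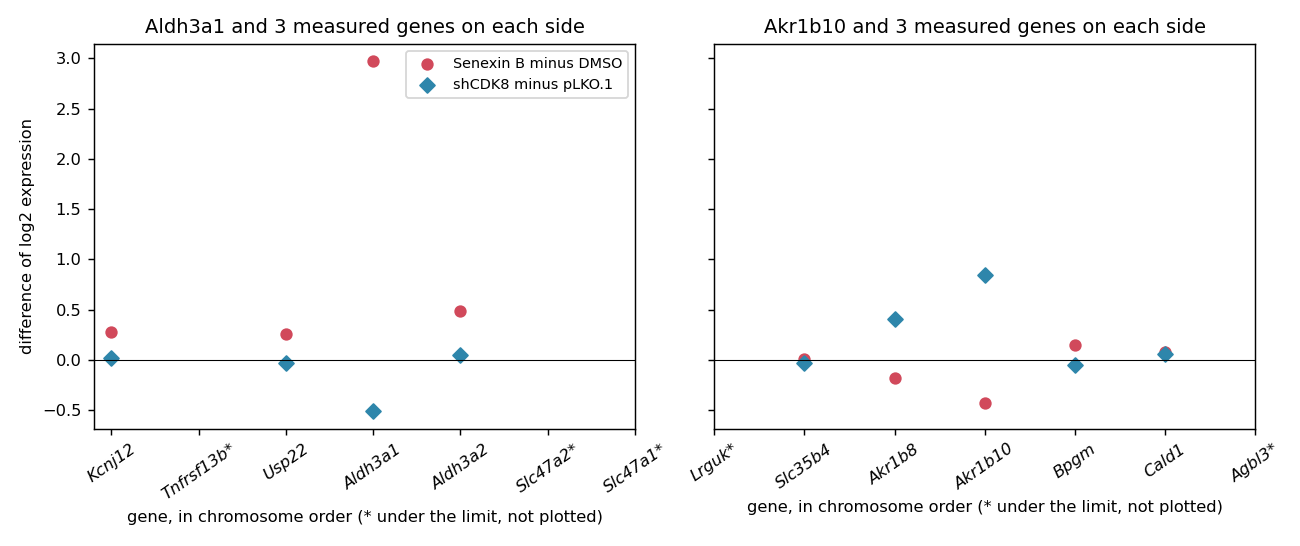
Difference of log2 expression (y axis) for Aldh3a1 (left) and Akr1b10 (right) and the 3 measured genes on each side in RefSeq order, for Senexin B minus DMSO (circles) and shCDK8 minus pLKO.1 (diamonds), with starred genes under the limit and not plotted. Aldh3a2 beside Aldh3a1 lies at 0.48 with Senexin B, and Akr1b8 and Akr1b10 lie at 0.40 and 0.85 in shCDK8 with Slc35b4 and Bpgm near 0.

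In the hairpin comparison 0 of the 22 members were 2-fold apart, beside 0.518% of all genes. At 1.5-fold 1 was higher (Akr1b10, beside 1.67%) and 1 lower (Aldh1l2, beside 1.85%). The median was 0.12, beside 0.0038 over all genes, with 16 of 22 above 0 beside 50.8%. Against DMSO the median was 0.051, beside -0.013 over all genes, with 13 of 22 above 0 beside 6785 of all 14272 genes. All 6 aldo-keto reductases were above 0 against pLKO.1, with a median of 0.14, but 4 of 6 against DMSO. Against DMSO 0 of the 22 were 2-fold apart, beside 0.596%, and 3 were 1.5-fold apart, beside 4.48%: Aldh5a1 higher, and Aldh3a1 and Aldh1l2 lower. The hairpin line lay above both controls in 12 members, beside 36.9%, and below both in 5, beside 38.4%. Between the controls (pLKO.1 minus DMSO) 0 of 22 were 1.5-fold apart, beside 1.04%, and 8 were above 0, beside 44.3%. Their median was -0.099 and their range -0.45 to 0.17, so the control arrays differed in these genes by about as much as the hairpin median.

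**Figure D3:**
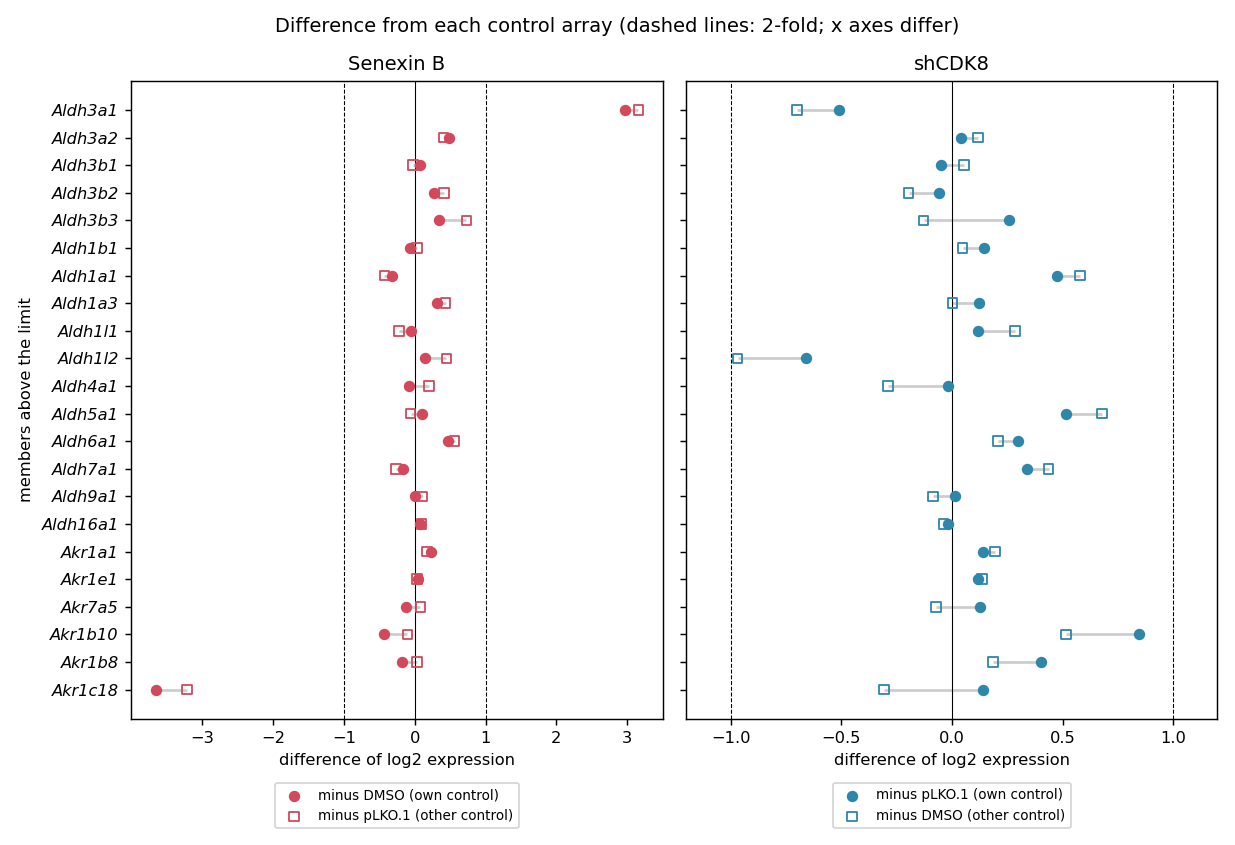
Difference of log2 expression (x axis) of the 22 genes above the limit, for Senexin B (left) and shCDK8 (right), from their own control (filled) and from the other control (open), with dashed lines at 2-fold. Aldh3a1 and Akr1c18 lie past 2-fold from both controls with Senexin B, and no gene does in shCDK8, where Aldh1l2 comes nearest at -0.97 from DMSO.

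The inhibitor and hairpin comparisons share no array. Of the 22 members 13 had opposite signs in them, beside 47.3% of all genes. Aldh3a1 (2.97 and -0.51, Senexin B first), Akr1b10 (-0.44 and 0.85) and Aldh1a1 (-0.32 and 0.47) were past 0.3 in both with opposite signs, a distance chosen after the values were seen. None was past 0.3 in both with the same sign. Aldh6a1 came nearest, with 0.48 and 0.297. The share of all genes past this distance was not computed, and Aldh3a1 is a gene the families were chosen on, so nothing is read from these counts. Against pLKO.1 the Senexin B difference of Akr1b10 was -0.10.

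**Figure D4:**
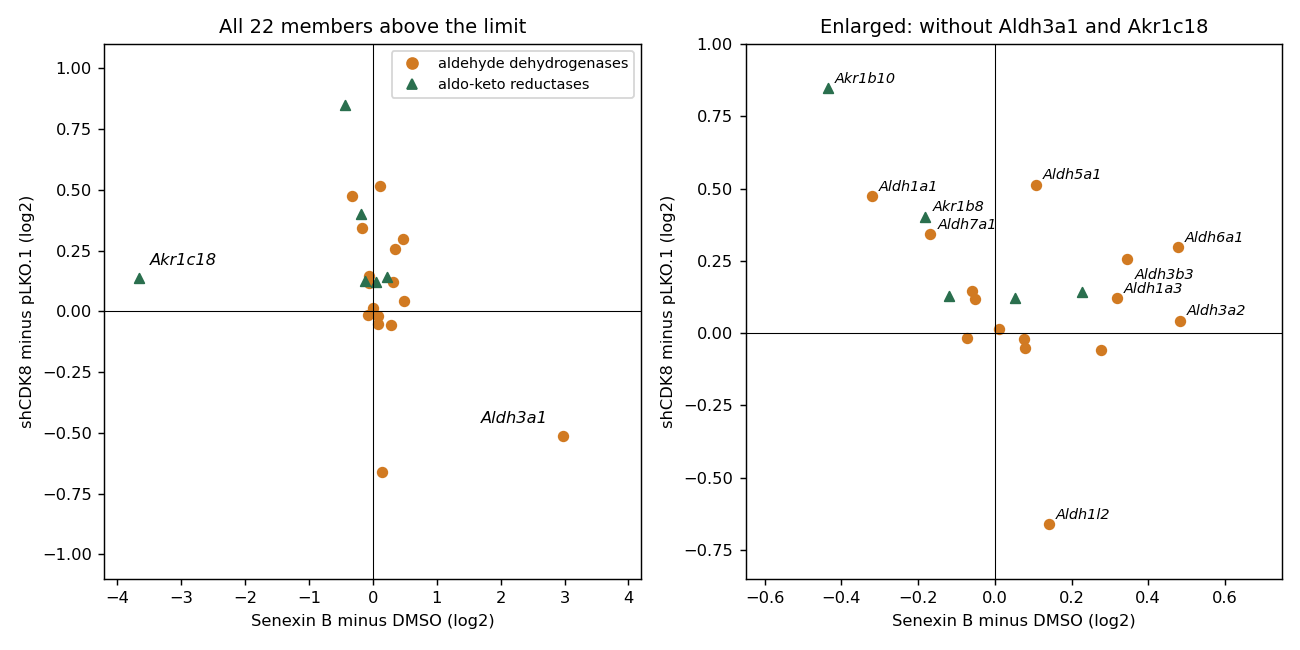
Senexin B minus DMSO (x axis, log2) against shCDK8 minus pLKO.1 (y axis, log2), 1 point per gene above the limit, all 22 on the left and an enlargement of the centre on the right. Aldh3a1 (2.97, -0.51) and Akr1c18 (-3.66, 0.14) are far out along the inhibitor axis, and Akr1b10 (0.85) and Aldh1l2 (-0.66) along the hairpin axis.

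Genes working with these enzymes were read from 8 lists. The enzymes that make and remove retinaldehyde held a large difference. Dhrs3, which reduces retinaldehyde back to retinol and is itself induced by retinoic acid, stood at 9.36 in DMSO, 11.22 in Senexin B, 9.45 in pLKO.1 and 9.46 in shCDK8. The Senexin B array was 1.86 or 3.63-fold above DMSO and 1.77 above pLKO.1, and the other three were within 0.10. Rdh10, which oxidizes retinol to retinaldehyde, was at 8.48, 9.23, 8.50 and 8.98, higher on both perturbed arrays (0.75 and 0.47). Of 13 alcohol and retinol dehydrogenases above the limit 1 was 2-fold higher and 0 lower with Senexin B, beside 0.687% and 0.252% of all genes. The median was -0.016, or 0.047 with a lowess trend removed and 0.16 against pLKO.1. Dhrs9 was at -0.35 and Rdh11 at 0.30. In shCDK8 12 of the 13 were above 0 against pLKO.1, beside 50.8% of all genes, with a median of 0.11. Against DMSO only 4 of 13 were, beside 6785 of all 14272 genes, with a median of -0.063. From either control 0 were 2-fold apart, beside 0.518% of all genes from pLKO.1 and 0.596% from DMSO. Adh5, the formaldehyde-clearing dehydrogenase, was 0.33 higher in shCDK8 than in pLKO.1. Dhrs4 was at 0.24 and Dhrs9 at -0.24 from pLKO.1.

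Genes that bind, degrade or sense retinoic acid had 9 of 15 measured members above the limit. From their own control 0 were 2-fold apart, beside 0.939% of all genes with Senexin B and 0.518% in shCDK8. Cyp26b1, a retinoic acid hydroxylase, stood at 7.71 in DMSO, 8.59 in Senexin B, 7.501 in pLKO.1 and 7.91 in shCDK8, highest with the inhibitor by 0.88 and 1.09. Crabp1, a retinoic acid binding protein, was at 8.54, 9.12, 8.01 and 7.51, highest with the inhibitor and lowest in the hairpin line. Rarb and Cyp26a1, also in this list, were under the limit on every array, with highest values of 5.92 and 5.43. The list median was 0.11 with Senexin B. In shCDK8 it was -0.066 against pLKO.1 and 0.15 against DMSO, so its sign depends on the control. The receptor gene Rara was 0.61 higher in shCDK8 than in pLKO.1 and 0.36 higher than in DMSO, and Stra6, the retinol uptake receptor, was 0.42 above pLKO.1.

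The aryl hydrocarbon receptor list had 6 genes above the limit beside Aldh3a1. For Senexin B minus DMSO 5 of these 6 were above 0, beside 44.8% of all genes, with a median of 0.25, and against pLKO.1 the median was 0.13. Nqo1 was at 0.40 and Tiparp, a polymerase that damps the receptor, at 0.35. Cyp1a2 was over the limit on the Senexin B array alone and differed by 0.38, or 0.15 with DMSO raised to the limit. Cyp1a1, the classical target of the receptor, read 5.91, 5.91, 6.02 and 5.85, so it was at the limit with no difference. The receptor gene Ahr itself was at 10.19, 10.34, 10.24 and 9.79, lowest in the hairpin line. For shCDK8 minus pLKO.1 5 of the 6 were below 0, beside 7009 of all 14272 genes, with a median of -0.13. Against DMSO 4 of 6 were, beside 7478 of all genes, with a median of -0.080. Cyp1a1 and Cyp1a2 count among the 5 although at background. Nqo1, a quinone reductase, was at -1.71 from pLKO.1, and Arnt, the receptor's partner, was the exception at 0.29.

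NRF2 and its partner enzymes had 16 of 17 measured genes above the limit and went both ways. With Senexin B 8 were above and 8 below 0, beside 44.8% of all genes above 0, and the median was 0.017. Heme oxygenase (Hmox1) was the 1 gene past 2-fold, beside 0.939% of all genes. It stood at 11.25, 10.17, 10.80 and 10.12 in DMSO, Senexin B, pLKO.1 and shCDK8. It was lowest on the Senexin B and shCDK8 arrays, at -1.08 from DMSO with the inhibitor and -0.68 from pLKO.1 in the hairpin line. Slc7a11, the cystine transporter, was 0.64 higher with the inhibitor, Gstm1 0.52 higher and Gclm at -0.45. In shCDK8 Nqo1 was 3.28-fold lower than in pLKO.1 and Gsta4, which conjugates the lipid aldehyde hydroxynonenal, 1.15 higher than in pLKO.1 but 0.50 higher than in DMSO. Gsr was at -0.49 there. The median was -0.013 against pLKO.1 and -0.14 against DMSO, and 0.13 for Senexin B against pLKO.1.

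Carbonyl reductases and steroid enzymes had 11 of 14 genes above 0 for Senexin B minus DMSO, beside 44.8% of all genes, and a median of 0.15. Against pLKO.1 there were 9 of 14, beside 7103 of all 14272 genes, with a median of 0.074. Past 2-fold from DMSO was 1 gene, beside 0.939% of all genes. This was Cbr2, a carbonyl reductase of lung that acts on the same kinds of ketones as the aldo-keto reductases. It stood at 6.98 in DMSO, 8.45 in Senexin B, 6.98 in pLKO.1 and 7.32 in shCDK8, 2.76-fold above DMSO. Hsd17b11, a steroid dehydrogenase of lipid droplets, was 0.75 higher and Hsd17b10 at -0.31. Hsd17b2 was over the limit on the Senexin B array alone and differed by 0.44, or 0.26 with DMSO raised to the limit. In shCDK8 the median was 0.049 and 0 were 2-fold apart, beside 0.518% of all genes. Dcxr, a xylulose reductase, was 0.80 higher, Hsd11b2 at -0.47, and Hsd17b11 0.38 and Cbr2 0.35 higher.

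Prostaglandins are substrates of several aldo-keto reductases. Of 9 genes of their synthesis and breakdown above the limit 0 were 2-fold apart in either comparison. Of all genes 0.939% were with Senexin B and 0.518% in shCDK8. The phospholipase gene Pla2g4a, which releases arachidonic acid, was 0.67 higher with Senexin B, Ptgr1 0.31, Ptges 0.27 and the cyclooxygenase gene Ptgs2 0.25. The medians were 0.023 with Senexin B (0.19 against pLKO.1) and 0.17 in shCDK8 (0.064 against DMSO), where Ptgr2 was 0.40, Ptgr1 0.36 and Ptgis 0.30 higher.

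Folate enzymes, the partners of Aldh1l2, were lower than in DMSO in 9 of 11 members with Senexin B, beside 7865 of all 14272 genes. The median was -0.27, or -0.18 with a lowess trend removed and -0.15 against pLKO.1. In shCDK8 8 of 11 were lower than in pLKO.1, beside 7009 of all genes, with a median of -0.13. In either comparison 0 were 2-fold apart, beside 0.939% of all genes with Senexin B and 0.518% in shCDK8. Mthfd2, the mitochondrial folate dehydrogenase, was at 10.35, 10.26, 9.94 and 9.43 in DMSO, Senexin B, pLKO.1 and shCDK8. It was lowest in the hairpin line, at -0.51 from pLKO.1 and -0.93 from DMSO, the same order of arrays as Aldh1l2 apart from the Senexin B and DMSO places. Tyms (-0.43), Mthfd2l (-0.32), Ftcd (0.31) and Mtr (-0.30) were furthest apart with Senexin B. In shCDK8 Mthfd2l was at 0.32, Mthfd1l at -0.23 and Shmt2 at -0.21. All 11 were below 0 between the controls too, with a median of -0.15, so a count below 0 in this list is not particular to the perturbed arrays.

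The partners of the amino acid dehydrogenases had medians of 0.028 with Senexin B and 0.021 in shCDK8 over 9 genes. Of these 0 were 2-fold apart, beside 0.939% of all genes with Senexin B and 0.518% in shCDK8. Against the other control the medians were -0.016 and -0.085, so their signs depend on the control. Bcat1, a branched-chain aminotransferase, was at -0.42 and -0.29. Gad1, which makes GABA, was under the limit in pLKO.1, and its shCDK8 difference of 0.40 was 0.074 with pLKO.1 raised to the limit and -0.31 from DMSO. Gad2 was at 0.19 and Mccc1 at -0.14 with Senexin B, and Prodh at -0.19 in shCDK8.

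**Figure D5:**
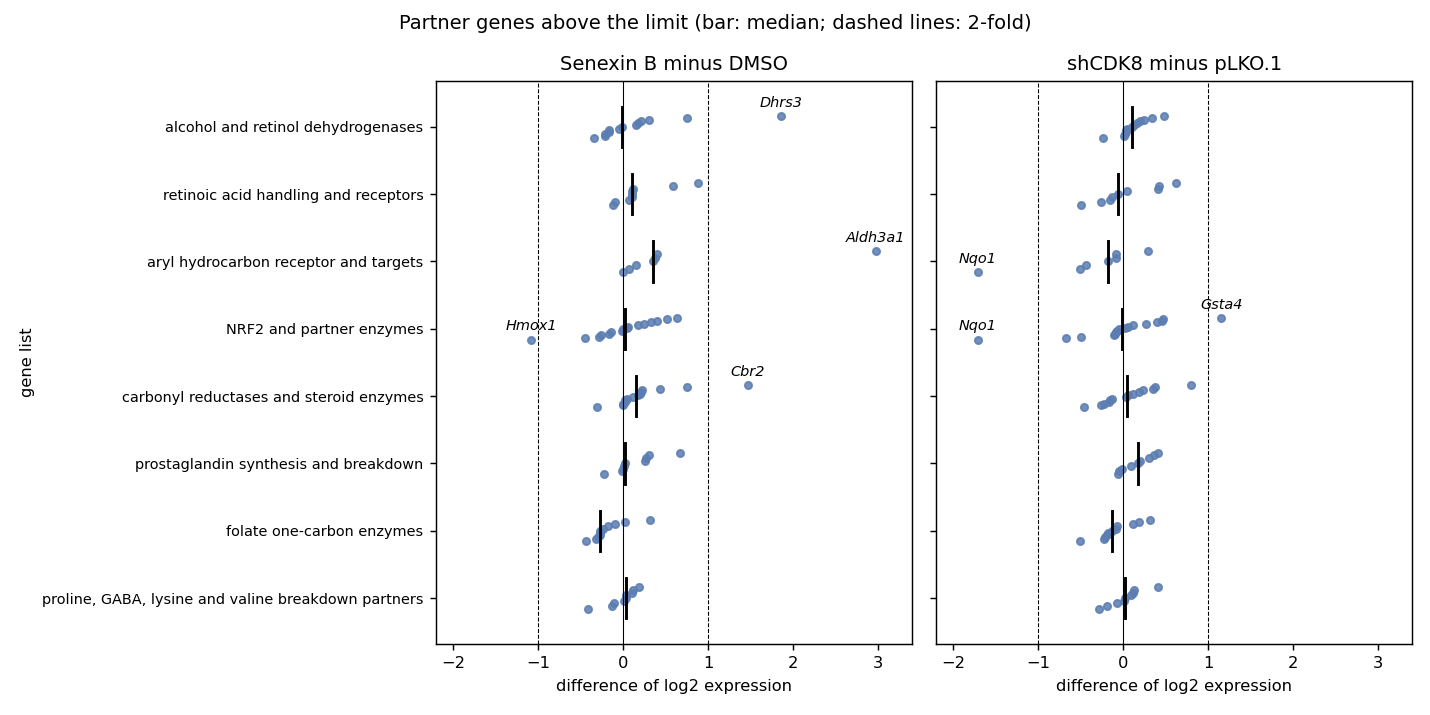
Difference of log2 expression (x axis) of the genes above the limit in 8 partner lists (rows), 1 point per gene, for Senexin B minus DMSO (left) and shCDK8 minus pLKO.1 (right), with the median as a bar and dashed lines at 2-fold. Dhrs3 (1.86), Cbr2 (1.47) and Aldh3a1 (2.97) lie to the right and Hmox1 (-1.08) to the left with Senexin B, and Nqo1 (-1.71, in 2 lists) and Gsta4 (1.15) are past 2-fold in shCDK8.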

How the data were processed

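The 4 CT26 cultures were measured on 1 array each. The authors deposited a log2 level for each probe set on each array. The submitters' processing notes name RMA and Affymetrix Expression Console. The sources used here give no settings and do not say if normalization was joint. RMA makes the arrays' distributions alike, so a shift of all genes is lost, and differences near background are compressed. The number of arrays limits the precision. Of 41345 probe sets 23521 had 1 symbol, 1814 several and 16010 none in the platform annotation. All 32 members were found in the RefSeq table for GRCm38.p6, used for gene order and promoters only.

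Differences of log2 values were computed with Python 3.11.15 and pandas 2.3.3, with no test. Every member was to be named, with all 4 values for those 1.5-fold apart or with the 5 highest means per family, and per partner list up to 4 genes of largest difference and any 2-fold apart; further values were added after they were seen. The members, lists and rules were chosen with earlier results of these data known. The calculation was tested on simulated data. Alternatives were other limits, a floor at the limit, repeated quantile normalization, a lowess trend (statsmodels 0.14.6, span 0.3), other handling of probe sets, other folds and the other control.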

Additional observations from a re-analysis of the deposited data

How the results depend on the processing

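The count of members 2-fold apart stayed at 2 with Senexin B under 11 alternatives and at 0 in shCDK8 under all but a threshold of 1.5-fold, which gave 2. The 2 with Senexin B are Aldh3a1 and Akr1c18, on which the families were chosen. They lie far past every fold tried, so nothing is read from that count. The medians moved by less than 0.1 under each alternative run. That distance is larger than the Senexin B median of 0.064, so it cannot show that the medians are stable. The hairpin median of 0.12 was 0.051 against DMSO. Of 545 values of single members under an alternative 508 moved by less than 0.1 and 37 by more. Of those 37, 30 came from the other control array, 6 from raising values to the limit and 1 from removing the lowess trend. Many of the 508 could not move, since some alternatives only choose which genes are kept. These were no filter (66 values), the 60th percentile (51), the receptor-gene limit (63) and genes with a single probe set (60). Averaging probe sets (63 values) could move only members with several probe sets, and the floor only members under the limit on some array. With the other control 30 values moved and 14 did not. A limit at the 60th percentile (7.19) removed Aldh1a3, Aldh1b1, Aldh1l1, Aldh3b3 and Aldh4a1, and the receptor-gene limit (6.07) Aldh1l1. Averaging the probe sets of a gene left 21 members above the limit, without Aldh6a1. Keeping genes with a single probe set left 20, without Aldh3a2 and Aldh6a1. The other control cannot be tried on pLKO.1 minus DMSO. No paired analysis was possible because each group has 1 array. Signal near background limits Aldh1l1, Aldh1a3, Aldh3b3 and the Senexin B value of Akr1c18.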
